A study of Homo sapiens with 6 samples.

Results

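The ERK cascade passes growth factor signals from the cell surface to the nucleus, and the genes described here are its kinase MEK1 (MAP2K1) and 9 genes that ERK signalling is known to switch on: the phosphatases DUSP4, DUSP5 and DUSP6, the feedback inhibitors SPRY2, SPRY4 and SPRED1, the transcription factors ETV4 and ETV5, and PHLDA1. They are 10 of the 20812 genes measured, taken as a list of symbols that had been drawn up with the levels of these genes in these libraries in view. Their difference between GIRK1 and control libraries is therefore a description, and no p-value is given for it. MAP2K1, DUSP4, DUSP5, DUSP6, SPRY4 and PHLDA1 were lower in both GIRK1 libraries than in both eGFP libraries, by 2.12-fold to 3.90-fold. SPRY2 was 1.68-fold higher, and SPRED1, ETV4 and ETV5 overlapped between the groups. In WT replicate 2, a library of the parental line, the 6 lower genes also lay above both GIRK1 libraries. There MAP2K1, DUSP6 and DUSP4 stood only 1.30-fold, 1.31-fold and 1.37-fold above the GIRK1 mean. SPRY2 in WT replicate 2 fell between the GIRK1 libraries. SPRY4, at the top of the range of folds, had at most 27 reads in a library.

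MCF10A is a non-tumorigenic human mammary epithelial cell line of basal character. The study asked what overexpression of GIRK1, a subunit of a G protein-gated potassium channel encoded by KCNJ3, does to these cells. The parental line (WT) was compared with cells stably transfected with the plasmid pIRES2eGFP (eGFP) and with cells that carry the same plasmid with the GIRK1 coding sequence (GIRK1), each in 2 libraries. Each gene was read through 1 short amplicon of its cDNA, and levels are given as RPM, the reads of a gene scaled to a common library total.

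Both transfected lines were selected with G418 and sorted on eGFP fluorescence, so that the GIRK1 cells express eGFP as well. The parental cells had neither plasmid nor selection, and all cells were grown in the same mammary epithelial medium. No clone is named. By the series description the libraries come from separate lines, 2 with GIRK1 and 2 controls, while the methods of the study call them replicates, and whether the libraries of a group came from separate lines or cultures is not settled by either, so p-values here measure the spread between these libraries, which may be technical. In such bulk samples, fewer cells that express a gene and less RNA of it per cell cannot be told apart.

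In this cascade, RAS proteins activate RAF kinases, RAF phosphorylates MEK1 and MEK2, and these phosphorylate ERK1 and ERK2. Active ERK raises the transcription of immediate early genes, of ETS factors of the PEA3 group and of its own inhibitors. DUSP phosphatases remove the activating phosphates from ERK, and Sprouty and SPRED proteins act upstream on RAS and RAF, so that the transcripts of these genes are widely used as a readout of how active the cascade is. Cultured mammary epithelial cells depend on this route for growth, since EGF receptor ligands feed into it.

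The libraries held between 2506120 (WT replicate 1) and 16040556 reads (WT replicate 2), and 3 reads, taken as the smallest level the depth can show, corresponded to 0.187 to 1.20 RPM. KCNJ3 had 2408 and 3677 reads in the GIRK1 libraries, 0 reads in both eGFP libraries and in WT replicate 2, and 48 reads in WT replicate 1. WT replicate 1 went against its label. Its 14 basal markers summed to 425 RPM against 11058 to 19986 RPM in the other 5 libraries, and its 14 luminal markers summed to 19811 RPM against 731 to 1101 RPM, with ESR1, PGR, TFF1, TFF3 and KRT19 at 0 in each of those 5. The basal marker TP63 was at 0 in all 6 libraries, and absence of its RNA cannot be told apart from an amplicon that gives no value. The 10 markers of stromal, endothelial and immune cells summed to 17.6 to 53.4 RPM, with COL1A2, CDH5 and PTPRC at 0 in all 6. WT replicate 1 is therefore kept apart and enters no main fit of the comparisons below, only an alternative fit of all 6 libraries. The eGFP libraries also differed from each other: among the 9212 genes that averaged 50 reads or more, 886 were 2-fold or more apart between them, against 119 between the GIRK1 libraries and 89 between WT replicate 2 and eGFP replicate 2. The file names of the GIRK1 libraries carry a tag that is absent from those of the other 4, and whatever it marks cannot be told apart from the condition.

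Promoter sequences are shown for MAP2K1, the one member inside the cascade and lower in GIRK1, and for SPRY2, the one member that was higher than both eGFP libraries, because the cAMP response element is the classical end point of signalling by G proteins that act on adenylyl cyclase. They come from RefSeq (GRCh38.p14), cut to bases before the first annotated exon, and capitals mark the core letters TGACG of that element on either strand (CGTCA on the other). The MAP2K1 sequence is chr15:66386662-66386816 on the plus strand and the SPRY2 sequence is chr13:80341127-80341376 on the minus strand.
MAP2K1: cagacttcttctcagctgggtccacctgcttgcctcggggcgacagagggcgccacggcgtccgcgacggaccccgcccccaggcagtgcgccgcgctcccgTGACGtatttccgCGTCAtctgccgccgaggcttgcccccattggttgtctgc
SPRY2: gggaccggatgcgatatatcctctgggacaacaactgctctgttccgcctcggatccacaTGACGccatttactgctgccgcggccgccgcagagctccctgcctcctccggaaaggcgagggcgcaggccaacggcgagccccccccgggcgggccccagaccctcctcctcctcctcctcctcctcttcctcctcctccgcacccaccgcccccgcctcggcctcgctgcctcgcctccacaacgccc

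The promoter table held entries for 6 of the members (DUSP6, MAP2K1, PHLDA1, SPRED1, SPRY2 and SPRY4). It listed 2 start sites for MAP2K1 and 3 for SPRY2, and the windows shown are the ones that hold these letters, which the other window of MAP2K1 and the other 2 of SPRY2 do not. In the 250 bases before the start site, TGACG or CGTCA occurred in 21.2% of the 35116 promoters of the table. These matches are therefore a description only. Whether signalling through this element changed in these cells was not tested. SPRY4 also held these letters, inside an annotated exon, and that stretch is not shown. None of the windows of the 6 members held the ETS motif CCGGAAGT, the AP-1 motif TGANTCA, the whole cAMP response element TGACGTCA or the TATA motif TATAAA on either strand, and 3.42%, 6.57%, 1.65% and 10.7% of all promoters did. The CArG box, the site of serum response factor, was absent as well and occurred in 1.16% of all promoters.

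MAP2K1, on chromosome 15 from 66386817 to 66492312 (GRCh38, plus strand), had the smallest ratio between the GIRK1 libraries of all members (1.02). Its levels were 196 and 162 RPM in the eGFP libraries, 113 RPM in WT replicate 2 and 87.6 and 86.2 RPM in the GIRK1 libraries. The groups did not overlap, and WT replicate 2 lay between them, 1.30-fold above the GIRK1 mean, where the eGFP replicates lay 2.25-fold and 1.86-fold above it. The mean was 179 ± 24.3 RPM in eGFP and 86.9 ± 0.981 RPM in GIRK1 (SD, n = 2 each), and the edgeR fit of these 4 libraries put the log2 difference at -1.09 (SE 0.22). Against eGFP and WT replicate 2 pooled (3 controls) it was -0.88 (SE 0.27), and with eGFP replicate 2 and WT replicate 2 as the controls, a choice made after seeing the data that leaves out eGFP replicate 1, it was -0.64. MAP2K2, which encodes the sister kinase MEK2, had 0 reads in all 6 libraries, so its amplicon gives no value.

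DUSP6, on chromosome 12 from 89347232 to 89353271 (minus strand), encodes the cytoplasmic phosphatase that acts on ERK. It had 226 and 140.8 RPM in the eGFP libraries, 104 RPM in WT replicate 2 and 78.1 and 80.6 RPM in the GIRK1 libraries. The GIRK1 values lay close together below all 3 controls, but eGFP replicate 1 stood 1.61-fold above eGFP replicate 2. Means were 184 ± 60.6 RPM in eGFP and 79.3 ± 1.80 RPM in GIRK1, a fitted log2 difference of -1.26 (SE 0.30). It came to -1.02 (SE 0.36) against the 3 controls and to -0.61 without eGFP replicate 1, with eGFP replicate 2 and WT replicate 2 as controls.

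DUSP5, on chromosome 10 from 110497838 to 110511544 (plus strand), encodes a nuclear phosphatase of ERK and differed most evenly. Its levels were 56.8 and 51.9 RPM in the eGFP libraries, 48.4 RPM in WT replicate 2, and 15.8 and 19.5 RPM in the GIRK1 libraries. Every control lay 2.75-fold to 3.22-fold above the GIRK1 mean, and the controls differed little from each other. Means were 54.3 ± 3.45 RPM and 17.6 ± 2.66 RPM, and the fitted log2 difference of -1.66 (SE 0.24) moved only to -1.59 (SE 0.21) with 3 controls and to -1.49 with eGFP replicate 2 and WT replicate 2 as controls.

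DUSP4, on chromosome 8 from 29333064 to 29350668 (minus strand), encodes another nuclear phosphatase of the family. It had 156 and 56.3 RPM in the eGFP libraries, 45.8 RPM in WT replicate 2, and 35.0 and 31.9 RPM in the GIRK1 libraries. Here 1 library carried most of the difference: eGFP replicate 1 was 2.78-fold above eGFP replicate 2, and the other controls lay 1.68-fold and 1.37-fold above the GIRK1 mean. The eGFP mean was accordingly 106 ± 70.8 RPM, against 33.5 ± 2.21 RPM in GIRK1. The fitted log2 difference was -1.73 (SE 0.48) against eGFP, -1.41 (SE 0.56) against the 3 controls and -0.59 with eGFP replicate 2 and WT replicate 2.

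**Figure D1:**
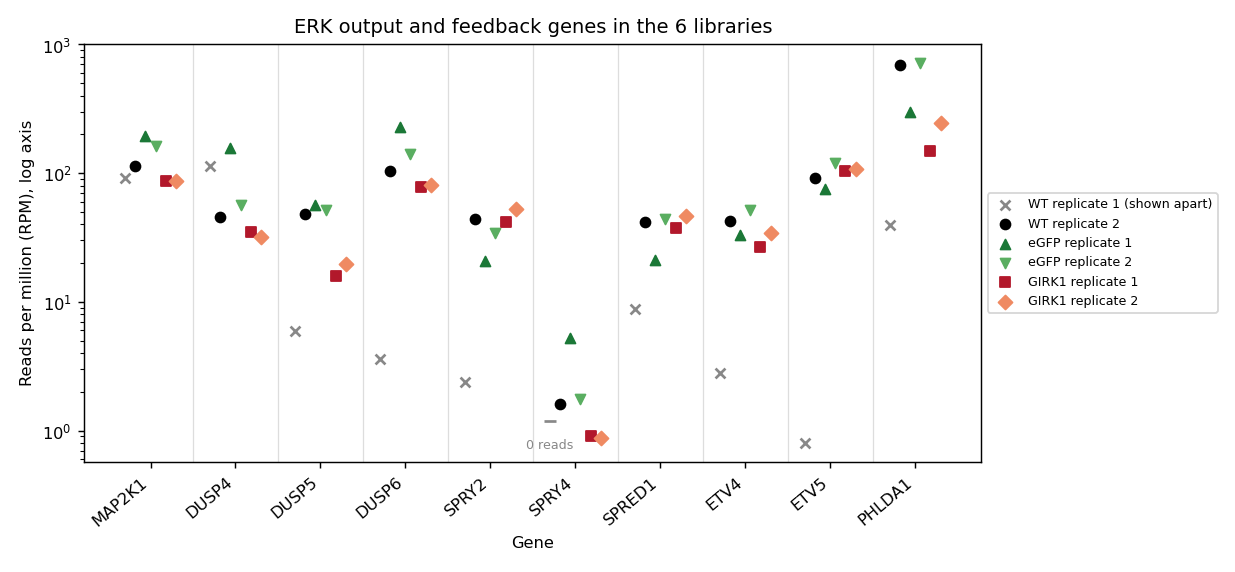
Level of each gene in RPM (log axis) in the 6 libraries, with 1 symbol per library and no averaging, and a dash at 1.20 RPM (3 reads) for SPRY4 in WT replicate 1, where it had 0 reads. DUSP5 shows the GIRK1 libraries (15.8 and 19.5 RPM) well below the 3 controls (48.4 to 56.8 RPM), and WT replicate 1 (crosses) lies far below the rest for DUSP6, SPRY2, ETV4 and ETV5.

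The Sprouty and SPRED genes did not move together. SPRY4, on chromosome 5 from 142310427 to 142326455 (minus strand), was counted in few reads: 27 and 18 in the eGFP libraries, 26 in WT replicate 2, and 10 and 9 in the GIRK1 libraries. In RPM these were 5.27, 1.76, 1.62, 0.90 and 0.87. The GIRK1 values were the lowest of these 5 libraries, but the exact (Clopper-Pearson) 95% interval of eGFP replicate 2, 1.04 to 2.78 RPM, overlapped that of GIRK1 replicate 1, 0.432 to 1.66 RPM, and these intervals cover counting error only. The fitted log2 difference was -1.96 (SE 0.70) against eGFP, -1.64 (SE 0.70) against the 3 controls and -0.90 without eGFP replicate 1, with eGFP replicate 2 and WT replicate 2 as controls.

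SPRY2, on chromosome 13 from 80335976 to 80340951 (minus strand), ran the other way. It had 20.7 and 34.6 RPM in the eGFP libraries, 44.0 RPM in WT replicate 2, and 42.0 and 53.0 RPM in the GIRK1 libraries. Both GIRK1 values exceeded both eGFP values, but WT replicate 2 fell between the GIRK1 libraries, so the groups overlapped once it was counted as a control. Means were 27.6 ± 9.84 RPM in eGFP and 47.5 ± 7.72 RPM in GIRK1, with a fitted log2 difference of 0.75 (SE 0.28), or 0.50 (SE 0.29) against the 3 controls and 0.29 with eGFP replicate 2 and WT replicate 2 as controls.

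SPRED1, on chromosome 15 from 38252326 to 38357249 (plus strand), inhibits RAS together with neurofibromin. Its levels were 21.1 and 43.8 RPM in eGFP, 41.4 RPM in WT replicate 2, and 37.3 and 46.7 RPM in GIRK1. eGFP replicate 1 was low and the other 4 libraries were alike, and the fitted log2 difference of 0.34 (SE 0.34) was about as large as its error.

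ETV4 and ETV5 encode the PEA3 group factors that carry ERK signals to their target genes. ETV4, on chromosome 17 from 43527844 to 43579620 (minus strand), had 33.2 and 51.6 RPM in eGFP, 42.3 RPM in WT replicate 2, and 26.6 and 34.2 RPM in GIRK1. GIRK1 replicate 2 was just above eGFP replicate 1, so the groups overlapped in RPM. With TMM scaling in place of total reads both GIRK1 libraries fell below both eGFP libraries. The fitted log2 difference was -0.51 (SE 0.27) against eGFP and -0.50 (SE 0.23) against the 3 controls.

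ETV5, on chromosome 3 from 186046308 to 186110318 (minus strand), had 75.1 and 119 RPM in eGFP, 91.2 RPM in WT replicate 2, and 103 and 108 RPM in GIRK1. The GIRK1 libraries lay inside the range of the controls. Means were 97.2 ± 31.3 RPM in eGFP and 106 ± 3.05 RPM in GIRK1, with a log2 difference of 0.09 (SE 0.24).

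PHLDA1, on chromosome 12 from 76025447 to 76033932 (minus strand), encodes a pleckstrin homology-like protein that growth factors induce. It had 300 and 718 RPM in eGFP, 690 RPM in WT replicate 2, and 150 and 245 RPM in GIRK1. Unlike the phosphatases, PHLDA1 was lower in eGFP replicate 1 than in the other controls, which put that library only 1.52-fold above the GIRK1 mean, against 3.64-fold for eGFP replicate 2 and 3.50-fold for WT replicate 2. Means were 509 ± 295 RPM and 197 ± 67.6 RPM. The fitted log2 difference was -1.38 (SE 0.43), -1.53 (SE 0.40) against the 3 controls and -0.70 without eGFP replicate 2.

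**Figure D2:**
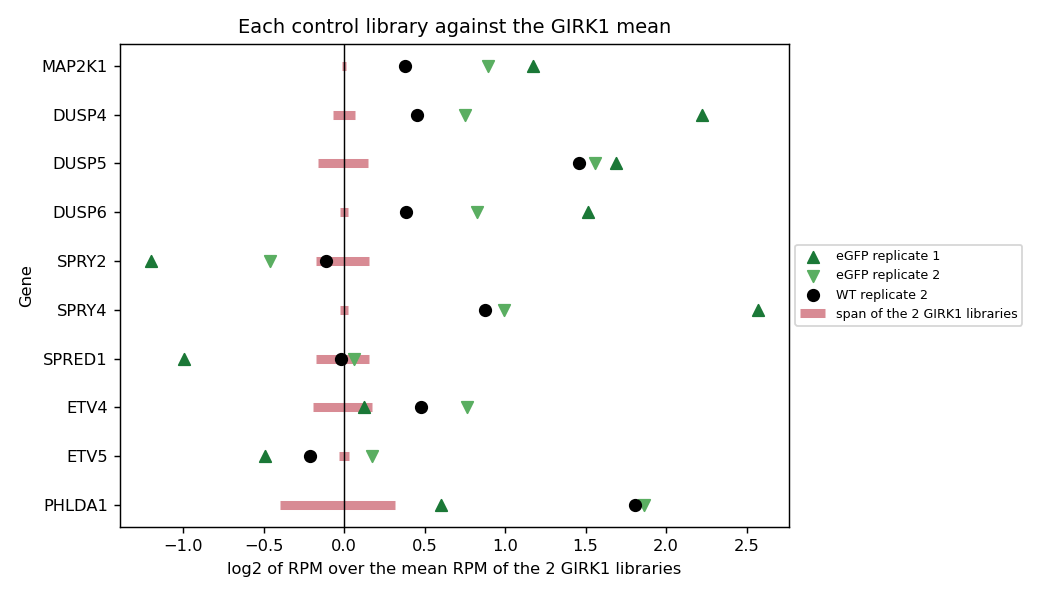
Each control library's RPM over the mean RPM of the 2 GIRK1 libraries, on a log2 axis, for each gene. The red bar spans the GIRK1 libraries. For DUSP4 and SPRY4 eGFP replicate 1 (4.68-fold and 5.95-fold above the GIRK1 mean) stands far to the right of the other controls, for PHLDA1 it lies nearest to GIRK1, and for DUSP5 the 3 controls lie together.

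Read together, 6 of the 10 genes had both GIRK1 libraries below both eGFP libraries and 1 had both above, where 25.2% and 29.1% of the 11279 genes tested did so. Against the 3 controls 6 lay below and 0 above, with 19.5% and 21.6% of 11389 genes. The genes had been chosen on these values, so nothing is read from these shares. The median log2 difference of the 10 was -1.17, with a range from -1.96 to 0.75, beside 0.013 for all genes tested. Of the 10, 6 were at least 2-fold lower in the fit, as were 866 of the 11279. Against the 3 controls the medians were -0.95 and -0.0074. With eGFP replicate 2 and WT replicate 2 as the only controls the median of the 10 was -0.61.

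The controls themselves divided the genes. Of the 10, 5 were higher in eGFP replicate 1 than in eGFP replicate 2 (MAP2K1, DUSP4, DUSP5, DUSP6 and SPRY4) and 5 were lower (SPRY2, SPRED1, ETV4, ETV5 and PHLDA1). In each of the first 5, all 3 controls lay above both GIRK1 libraries and WT replicate 2 was the closest of them. Among the others, WT replicate 2 was also the control nearest to the GIRK1 mean for SPRY2 and SPRED1. The summed basal markers were highest in eGFP replicate 1 (19986 RPM, against 13460 RPM in eGFP replicate 2), and most of that gap was KRT5 (10660 against 5741 RPM). KRT17, LAMB3, CDH3 and EGFR were lower in eGFP replicate 1 than in eGFP replicate 2, and the other basal markers with reads were higher. The part of these markers in the split was not tested. Counting forward and reverse reads separately kept the sign of the difference in 9 of the 10 genes, ETV5 being the exception with 0.29 from forward and -0.13 from reverse reads.

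The closest relatives of the members, which are not members themselves, were tested with edgeR's quasi-likelihood test, adjusted over all genes by Benjamini-Hochberg. They too were listed with earlier results of these data known. Of 15 such paralogs 12 had enough reads, and 0 passed the adjusted threshold of 0.05 in either direction against eGFP. Without adjustment 2 were lower and 0 higher at 0.05, and DESeq2 called 1 lower. Among the phosphatases, DUSP1 had a log2 difference of -0.38, DUSP7 -0.17, DUSP10 0.08 and DUSP16 -0.12. Their adjusted p-values were 0.417, 0.776, 0.877 and 0.828 in edgeR. DUSP2 and DUSP8 had log2 differences of 0.28 and 0.79, with edgeR adjusted p-values of 0.796 and 0.539. SPRY3 and SPRED3, with at most 21 and 15 reads in a library, had 0.38 and -0.61. Their edgeR adjusted p-values were 0.705 and 0.599. SPRED2, the sister of SPRED1, had a log2 difference of 0.49 with an edgeR adjusted p = 0.354. PHLDA2 and PHLDA3, relatives of PHLDA1, had -0.86 and -0.22 with edgeR adjusted p-values of 0.149 and 0.621. ETV1, the remaining PEA3 factor, had 11.7 and 11.8 RPM in eGFP, 5.86 RPM in WT replicate 2, and 4.68 and 3.38 RPM in GIRK1. Its log2 difference was -1.58 (SE 0.34) with an edgeR adjusted p = 0.0856 against eGFP, and the adjusted p was 0.178 against the 3 controls. SPRY1 was at or under 1 read in all libraries and could not be compared. DUSP9 and MAP2K2 had too few reads for a test as well.

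Beyond the members, 91 other genes of the pathway were examined, 80 of which had enough reads. Across all genes tested against eGFP, edgeR called 0.780% higher and 0.745% lower at an adjusted p of 0.05, and 8.42% higher and 10.8% lower without adjustment. DESeq2 called 2.14% higher and 4.02% lower against eGFP. Against the 3 controls the shares were 0.799% and 0.413%, and 8.58% and 10.2% without adjustment. Of the 80 genes, 2 were called lower and 0 higher against eGFP, and 3 lower and 0 higher against the 3 controls. Both lists of calls came from the 37 transcription factors and targets downstream of ERK that were tested.

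The cascade itself, from receptor adaptors to ERK, had 0 calls among 21 genes tested, with 4 lower and 0 higher at an unadjusted 0.05 in edgeR and 1 lower in DESeq2. Its median log2 difference was 0.10. In 7 of these 21 genes both GIRK1 libraries lay below both eGFP libraries, and in 6 above, beside 25.2% and 29.1% of all genes tested. The feedback list is mixed, and its genes were taken whether or not ERK induces them. It holds other inhibitors of the cascade, further MAP kinase phosphatases such as DUSP10, and the transcriptional repressors CIC and ERF. Of its genes, 22 were tested and had 0 calls. Unadjusted, 1 was lower and 0 higher, DESeq2 called 0, and the median was -0.011. Both GIRK1 libraries lay below both eGFP libraries in 6 of these 22 genes and above them in 4. The genes of the JNK, p38 and ERK5 routes, a comparison set of 15, also had 0 calls, with 2 lower and 0 higher unadjusted and 0 in DESeq2, and a median of -0.039.

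The transcription factors and targets downstream of ERK had the lowest median of these lists. Of the 37 tested, 19 (51.4%) had both GIRK1 libraries below both eGFP libraries and 6 above, beside 25.2% and 29.1% of all genes tested. At an unadjusted 0.05 in edgeR, 15 (40.5%) were lower and 1 was higher, beside 10.8% and 8.42% of all genes tested. The list was written with earlier results of these data known, so these shares are a description only. DESeq2 called 10 lower and 1 higher. The median log2 difference of the list was -0.44 against eGFP and -0.27 against the 3 controls.

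AREG encodes amphiregulin, a ligand of the EGF receptor, and had the clearest separation. Its levels were 1594 and 1874 RPM in eGFP, 1890 RPM in WT replicate 2, and 469 and 397 RPM in GIRK1. The 3 controls were alike, and GIRK1 was 4.11-fold lower than eGFP, a log2 difference of -2.04 (SE 0.22) with an edgeR adjusted p = 0.0121, or 0.00373 against the 3 controls. IER3, an immediate early gene that affects survival, had 247 and 250 RPM in eGFP, 182 RPM in WT replicate 2, and 69.1 and 86.3 RPM in GIRK1. The log2 difference was -1.72 (SE 0.22), with an edgeR adjusted p = 0.0238 against eGFP and 0.0343 against the 3 controls. The size of both differences held when any 1 library was left out (from -2.15 to -1.94 for AREG and from -1.91 to -1.55 for IER3 against eGFP), but the calls did not. Against eGFP, without GIRK1 replicate 2, the edgeR adjusted p was 0.0515 for AREG and 0.0928 for IER3, and without GIRK1 replicate 1 it was 0.178 for IER3. Against the 3 controls, AREG stayed past the threshold in 3 of the 5 fits that left out a library, with edgeR adjusted p-values of 0.0578 and 0.103 without GIRK1 replicate 1 and 2. IER3 stayed past it in 2 of the 5, with 0.172 without eGFP replicate 2, and 0.332 and 0.287 without GIRK1 replicate 1 and 2.

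EREG encodes epiregulin, another ligand of the EGF receptor, and in edgeR passed against the 3 controls but not against eGFP. It had 15.0 and 22.6 RPM in eGFP, 20.7 RPM in WT replicate 2, and 5.67 and 7.64 RPM in GIRK1. The edgeR adjusted p was 0.0489 against the 3 controls (log2 difference -1.57) and 0.0801 against eGFP (log2 difference -1.54, SE 0.32). This call was lost when WT replicate 2, eGFP replicate 2 or either GIRK1 library was left out, with edgeR adjusted p-values of 0.0801, 0.220, 0.380 (GIRK1 replicate 1) and 0.315 (GIRK1 replicate 2), and it was 0.00338 without eGFP replicate 1. It was also lost with total-read scaling (0.0576) and with at least 10 reads required in every library (0.0532). Against eGFP, EREG passed with DESeq2 (adjusted p = 0.00805), without the filter on low counts (0.00736 in edgeR) and in 2 of the 4 fits that left out a library.

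Other targets were picked after their values were seen. FOSB and FOSL1, which encode partners of JUN in AP-1, had log2 differences of -1.42 and -1.33 against eGFP with edgeR adjusted p-values of 0.0530 and 0.0861. Both passed, with HMGA1, AREG, EREG and IER3, when eGFP replicate 2 and WT replicate 2 served as the only controls. ETS2 and BHLHE40 then passed as higher. That fit left out eGFP replicate 1 and called 485 of 11274 genes higher and 499 lower. With all 3 controls these were 91 and 47 of 11389. Of the 80 pathway genes it called 2 higher and 6 lower, and these calls are a description only. Against eGFP, FOS had -0.97 with an edgeR adjusted p = 0.150 and MYC -0.62 with 0.220. EGR1, which ERK induces within minutes, had 0.15 with 0.836, and its levels of 232 and 317 RPM in GIRK1 lay between those of the eGFP libraries, 157 and 330 RPM.

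**Figure D3:**
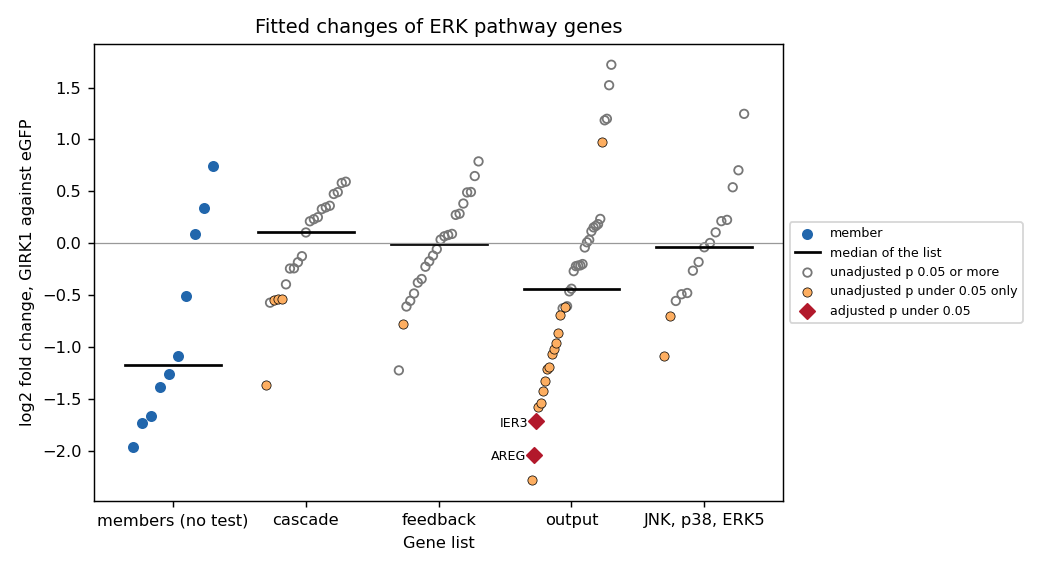
Fitted log2 difference of GIRK1 against eGFP for the members (filled blue circles, no test) and for the other genes of 4 lists, 1 point per gene in order of size, with the black line at the list's median. The output list (transcription factors and targets downstream of ERK) has a median of -0.44. It holds the only calls among the tested lists, AREG and IER3 (red diamonds). The cascade, feedback and JNK, p38 and ERK5 lists have medians of 0.10, -0.011 and -0.039.

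A published score of the activity of this route uses 10 transcripts, 7 of which are members here (DUSP4, DUSP6, SPRY2, SPRY4, ETV4, ETV5 and PHLDA1). The remaining 3 are CCND1, EPHA2 and EPHA4, which are not members here. The members were chosen with earlier results of these data known, so these 3 are no independent check. CCND1, which encodes cyclin D1, had 114 and 60.1 RPM in eGFP, 70.7 RPM in WT replicate 2, and 79.7 and 96.1 RPM in GIRK1. EPHA2, a receptor kinase, had 194 and 285 RPM in eGFP, 252 RPM in WT replicate 2, and 152 and 208 RPM in GIRK1. Neither separated the groups, with log2 differences of -0.041 and -0.44 and edgeR adjusted p-values of 0.957 and 0.400. EPHA4 was at or below 0.450 RPM in these 5 libraries and was not tested.

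**Figure D4:**
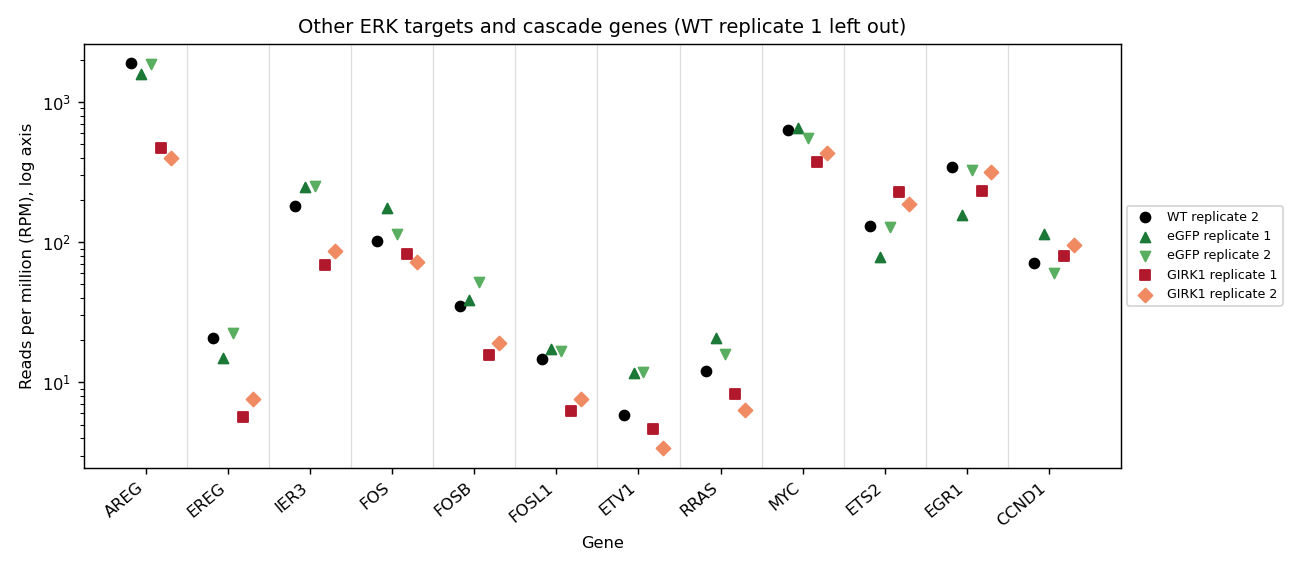
Level in RPM (log axis) of 12 ERK targets and cascade genes that are not members, in the 5 libraries other than WT replicate 1, with 1 symbol per library. AREG shows the 3 controls at 1594 to 1890 RPM and the GIRK1 libraries at 469 and 397 RPM, whereas CCND1 and EGR1 overlap between the groups.

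The members' median profile over the 5 libraries was closest, by Euclidean distance of centred log2(RPM + 1) values among the 9279 genes that averaged 50 reads or more in these libraries, to those of UCK2 (0.301), GLYCTK (0.314), CDC34 (0.318), TXNRD3 (0.318) and RPUSD3 (0.319). SPRY4 was too low to enter this profile. UCK2, a uridine-cytidine kinase, had 315 and 421 RPM in eGFP, 385 RPM in WT replicate 2, and 254 and 254 RPM in GIRK1. This is a smaller step than that of most members. The members in the profile lay 0.451 (ETV4) to 1.74 (DUSP4) from their own median, farther than UCK2, so a gene near the median need not resemble any member.

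The library labelled WT replicate 1 showed another picture. Of the members, 7 had reads there but lay below all 5 other libraries, 2 (MAP2K1 at 92.2 RPM and DUSP4 at 115 RPM) lay within their range, and SPRY4 had 0 reads, which allows up to 1.20 RPM and so does not separate it from the GIRK1 libraries. ETV5 was furthest apart, with 2 reads (0.798 RPM) against 1463 reads (91.2 RPM) in WT replicate 2. DUSP6 had 3.59 RPM, which was 28.9-fold below WT replicate 2, and SPRY2, PHLDA1 and ETV4 were 18.4-fold, 17.3-fold and 15.2-fold below it. DUSP5 and SPRED1 lay 8.09-fold and 4.72-fold below WT replicate 2. The luminal markers of this library move with these values, and their part in them was not tested.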

How the data were processed

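RNA of 6 libraries, 2 each of WT, eGFP and GIRK1 MCF10A cells, was measured by Ion AmpliSeq Transcriptome sequencing. The authors mapped the reads with the Ion Torrent suite to its human amplicon reference and deposited whole-number read counts for 20812 amplicons, 1 per gene, with forward and reverse reads. The RPM values deposited by the authors are counts scaled to the library total. How reads of near-identical genes were assigned is not given in the sources used here, and levels of different genes are not compared, since amplicons differ in efficiency.

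Libraries were grouped by their labels, and 0 columns were left out for want of a label. The members, the other gene lists, which were written from general knowledge, and the tests were chosen with earlier results of these data known. Counts were fitted with edgeR 4.0.16 (R 4.3.3, limma 3.58.1; TMM scaling, filterByExpr, glmQLFit and glmQLFTest, Benjamini-Hochberg adjustment, threshold 0.05). GIRK1 was fitted against eGFP (4 libraries) and against eGFP and WT replicate 2 (5 libraries), and standard errors were derived from F. Intervals (Clopper-Pearson) and the floor of 3 reads cover counting error only. Named genes were all members, their paralogs, the score genes, list genes called against eGFP and the 5 genes nearest to the members' median profile; others are said to have been picked later. Alternatives were DESeq2 1.42.0, other scalings and filters, a fit of all 6 libraries, the replicate number as a block, leaving out each library, and the study's rule (2-fold on mean RPM, coefficient of variation below 0.7). The edgeR procedure was tested on simulated counts with 200 changed genes. Those changes were larger than that of any member, and every gene had the same spread. The simulation therefore does not show how well differences of the size reported here are found. Gene positions are those of GENCODE (GRCh38), matched by symbol, and promoters those of RefSeq (GRCh38.p14). DUSP4, DUSP5, ETV4 and ETV5 had no promoter entry in the table used.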

Additional observations from a re-analysis of the deposited data

Results flagged for a closer look

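WT replicate 1 enters no main comparison, and 5 of the 101 genes examined stood there at least 4-fold above every other library with 50 or more reads. CCND1, encoding cyclin D1, had 789 RPM against at most 114 RPM elsewhere. MAPK3, encoding ERK1, had 441 RPM against at most 35.7 RPM, and NRAS had 376 RPM against at most 76.6 RPM. EGR3 had 29.9 RPM against at most 2.16 RPM. EPHA4, the score gene too low to test in the other libraries, had 20.4 RPM against at most 0.450 RPM. The groups hold 2 libraries each, so that no test for a single outlying library within a group was made.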

How the results depend on the processing

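The members' median log2 difference against eGFP, -1.17, stayed between -1.20 and -0.78 under other scalings, the block and each left-out library, and was -0.61 with eGFP replicate 2 and WT replicate 2 as controls, where SPRED1 (-0.0035) changed sign. Without eGFP replicate 1, SPRED1 (-0.048) and ETV5 (-0.16) did so. The counts of calls moved far more, and the cause was not tested. Among the 80 pathway genes and among all genes, against eGFP (2 and 172 calls), there were 14 and 881 without the filter on low counts, 12 and 694 with DESeq2, 0 and 0 in edgeR with all 6 libraries (2 and 606 unadjusted), 0 to 29 and 89 to 2933 when a library was left out, and 15 and 1309 by the study's rule. With at least 10 reads in every library, 2 of 72 pathway genes and 111 of 10025 genes in all were called. Against the 3 controls, the main fit called 3 of 80 pathway genes, and 91 higher and 47 lower of 11389 genes in all. Without the filter the calls were 5 of 90 and 374 of 15206. DESeq2 called 10 of 80 and 806 of 11389, and the fit with all 6 libraries 0 of 80 and 4 of 11546. With a library left out, the calls were 0 to 8 among 80 or 81 pathway genes, and 19 to 984 among all genes. With the replicate number as a block, 10 pathway genes and 590 of all genes were called against eGFP, and 8 and 558 against the 3 controls, and under this block EREG passed against eGFP (edgeR adjusted p = 0.0238). The numbers are not known to pair the libraries: the eGFP and GIRK1 replicate differences correlated at r = 0.194 over 9212 genes. A fit with a library left out assumes that the lone library varies like the other group. With 2 libraries a group, and 0 to 27 reads for SPRY4, small differences could not be shown.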
